A study of Mus musculus with 2 samples.

Results

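The Osr2 and Mfap4 mesenchymal cells were 451 of the 8765 cell barcodes in 2 single-cell RNA-seq libraries of mouse pancreas at embryonic day 18.5, 211 in the control library and 240 in the library labelled knockout. They were chosen by counts of named genes. A barcode needed at least 500 detected genes, at most 10% mitochondrial UMIs (unique molecular identifiers, each standing for 1 captured RNA molecule) and at least 20 UMIs of Col1a1, Col1a2 and Col3a1. It could hold at most 2 UMIs of the pericyte genes Rgs5, Kcnj8, Abcc9 and Higd1b, at most 1 of the mesothelial genes Upk3b and Lrrn4, and at most 2 of the proliferation genes Top2a, Mki67, Cenpf, Birc5 and Ube2c. It then needed at least 4 UMIs of Mfap4, Osr2, Cxcl1 and Slit2 together, and at least 2 times as many of these as of Mfap5, Krtdap, Cthrc1, Dpt, Clec3b and Col5a3. Barcodes with the same limits and the second set of genes in the lead are called Mfap5 and Dpt fibroblasts here and numbered 200 and 320. The values of these genes chose the cells and are given as a description.

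Each library came from 1 pancreas of a C57BL/6 mouse. The control has no allele named in the labels. The other is labelled knockout and called Dpy30∆P in the text of the series, after Dpy30, which encodes a core subunit of the TrxG (MLL and SET1) complexes that methylate histone H3. The labels do not say how or in which cells the gene was deleted, nor which alleles the control carried. With 1 library in each group no test across animals was possible, and every interval below is a 95% interval that covers counting error only.

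The mesenchyme of the developing pancreas surrounds the epithelium and sends it signals that sustain its growth, among them fibroblast growth factors, WNT ligands and retinoic acid. It also lays down the matrix on which the epithelium branches, made of fibrillar collagens, elastic fibres and basement membrane proteins. Osr2 is a zinc finger transcription factor of embryonic mesenchyme, and Mfap4 encodes a glycoprotein of elastic fibre microfibrils. Cxcl1 is a chemokine that attracts neutrophils, and Slit2 is a secreted ligand of ROBO receptors.

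The quality limits kept 2633 of 3986 control barcodes and 3257 of 4779 barcodes of the library labelled knockout, with a median of 6856 and 6652 UMIs, from libraries of 25398522 and 33048640 UMIs. The libraries differed in sex. Control barcodes held 1 UMI of Xist, the RNA that coats the silenced X, and 1624 of Y-linked Ddx3y, where those of the other library held 48052 and 0. Sex, the handling of each library (resuspension in 500 and 250 µL) and genotype cannot be told apart. Dpy30 itself was not lower in the epithelium of the library labelled knockout, at 134 and 178 CPM (counts per 1000000 UMIs of the class) in epithelial barcodes that were neither acinar nor endocrine. In the Osr2 and Mfap4 cells Dpy30 had 74 UMIs in each library, or 62.8 and 54.0 CPM, a ratio of 0.860 (0.614 to 1.20). These counts do not check the deletion, because the labels do not say which part of the gene was removed and the assay reads the 3' end. The libraries shared 27 barcode sequences, 12 among kept barcodes and none among the Osr2 and Mfap4 cells.

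The Osr2 and Mfap4 cells held a median of 5508 UMIs in the control library (1793 to 16665) and 5408.5 in the library labelled knockout (2398 to 17492), with a median of 1772 and 1781.5 detected genes and 2.30% and 2.20% mitochondrial UMIs. Depth was thus nearly the same in both. The 4 genes that chose them summed to a median of 9 UMIs per cell in each library, and the 6 opposing genes to 1 and 2. All 4 genes were found together in 45 control cells and 41 of the other library, 3 of them in 103 and 128, 2 in 55 and 66, and a single one in 8 and 5. Just inside the rule, 20 and 24 cells had exactly 4 UMIs of the set, and 16 and 19 barcodes just outside had 3 with the ratio met. Another 74 and 87 barcodes had 4 or more UMIs of the set but a ratio between 1 and 2, so the class passed without a gap into its neighbours, as the plot of both marker sums shows.

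**Figure D1:**
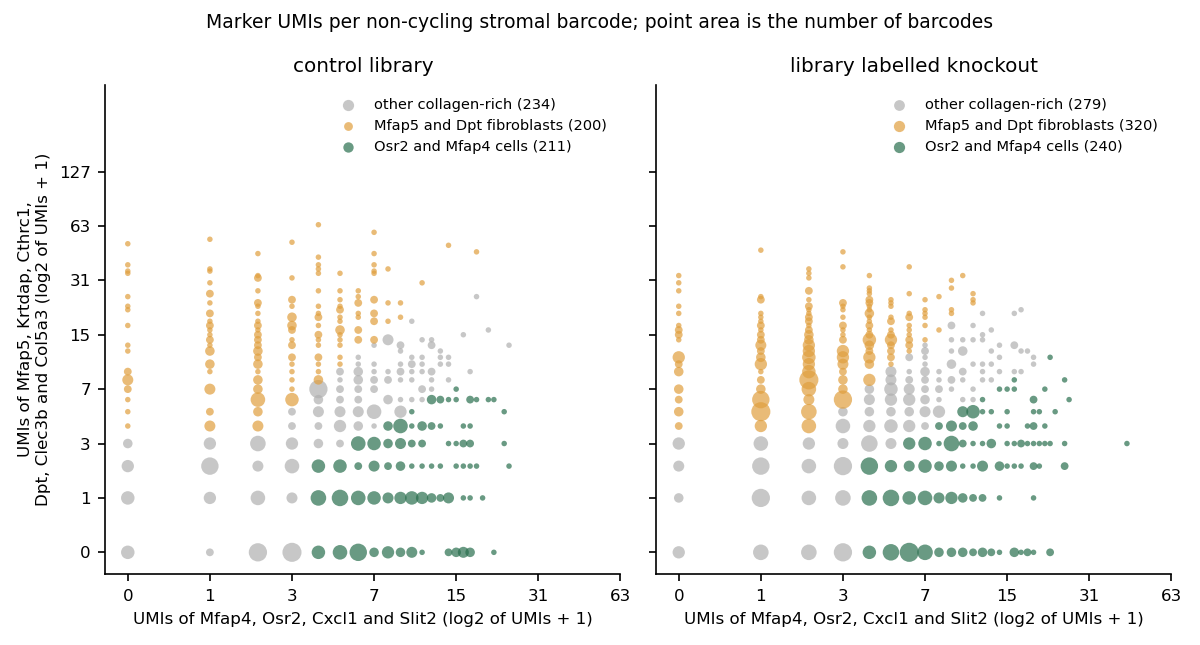
Each point is a combination of the summed UMIs of Mfap4, Osr2, Cxcl1 and Slit2 (x axis) and of Mfap5, Krtdap, Cthrc1, Dpt, Clec3b and Col5a3 (y axis), both as log2 of UMIs + 1, over non-cycling stromal barcodes of each library, with point area for the number of barcodes. The 211 and 240 Osr2 and Mfap4 cells lie at the lower right, next to barcodes with mixed counts and without an empty band between them.

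Mfap4 stood at 523 CPM (483 to 566) in the control cells and 532 (494 to 572) in the library labelled knockout. Its next level was in pericyte-gated barcodes (407 and 331), followed by cycling barcodes that met the same marker ratio (317 and 292), other collagen-rich barcodes (295 and 287) and Mfap5 and Dpt fibroblasts (141 and 117). It was close to 0 outside the mesenchyme: 0 and 1.00 in endothelial, 0 and 1.35 in acinar and 0.502 and 0.753 in other epithelial barcodes. Mfap4 was therefore a gene of several mesenchymal classes that was highest in the cells it helped to choose.

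Osr2 was spread more evenly over the mesenchyme. It reached 423 CPM (387 to 462) and 473 (438 to 511) in the Osr2 and Mfap4 cells, 304 and 328 in other collagen-rich barcodes, 289 and 347 in pericyte-gated barcodes and 225 and 248 in the Mfap5 and Dpt fibroblasts. Mesothelial-gated barcodes had 6.60 and 13.0, and other epithelial barcodes 0.669 and 0.753. The level in the Osr2 and Mfap4 cells was 1.88 times that in the fibroblasts in the control library and 1.91 times in the other, although Osr2 was 1 of the genes of the rule.

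Cxcl1 had the steepest fall between the mesenchymal classes. It stood at 481 CPM (442 to 522) and 561 (522 to 602) in the Osr2 and Mfap4 cells and at 71.2 and 55.9 in the fibroblasts, a ratio of 6.75 (5.39 to 8.55) and 10.0 (8.15 to 12.5). Pericyte-gated barcodes had 212 and 244. Outside the mesenchyme it stood at 109 and 15.9 CPM in immune-gated and 28.4 and 17.8 in other epithelial barcodes, and the part of free RNA in these counts was not tested. Slit2 stood at 268 CPM (239 to 299) and 211 (187 to 237), against 198 and 105 in pericyte-gated barcodes and 63.1 and 56.5 in the fibroblasts.

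Shares of cells are given for the same genes, which the rule favoured in the Osr2 and Mfap4 cells. After thinning each cell to 2000 UMIs, which left out 1 shallower control cell, Mfap4 was found in 54.3% and 55.4% of the Osr2 and Mfap4 cells, against 18.0% and 16.7% of fibroblasts. Osr2 was found in 48.1% and 61.7% against 34.5% and 36.2%, Cxcl1 in 42.4% and 42.1% against 11% and 8.8%, and Slit2 in 38.6% and 34.6% against 12.5% and 8.49%. In other epithelial barcodes, given as a comparison outside the mesenchyme, Mfap4, Osr2 and Slit2 were found in at most 0.571% of either library and Cxcl1 in 3.81% and 2.57%. Median depth before thinning was 5508 and 5408.5 UMIs in the Osr2 and Mfap4 cells and 9649 and 12164 in that epithelium.

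Tcf21, a transcription factor of visceral mesenchyme that the rule did not use, had 82 and 91 UMIs in the Osr2 and Mfap4 cells. Its level was 69.6 CPM (55.3 to 86.3) in the control library and 66.4 (53.4 to 81.5) in the library labelled knockout. The fibroblasts had 37.2 (27.3 to 49.7) and 36.2 (28.0 to 46.0), so the ratio between the classes was 1.87 (1.29 to 2.74) and 1.83 (1.32 to 2.56). Other collagen-rich barcodes (43.3 and 45.0), pericyte-gated barcodes (45.0 and 54.4) and cycling barcodes with the same markers (48.5 and 42.4) lay between. Tcf21 had no UMI in other epithelial, acinar, endothelial or immune barcodes of either library. After thinning each cell to 2000 UMIs, 11.4% of control cells (7.46 to 16.5) and 11.7% of the other library's (7.89 to 16.4) held a Tcf21 UMI, against 7.50% and 7.86% of fibroblasts and 0 of the epithelial barcodes (upper limits 0.700% and 0.676%). Without thinning the shares were 28.4% and 27.1%, and 80.1% and 78.8% for Mfap4. At the edge of the rule, with 4 UMIs of the set, 6 of 20 and 5 of 24 cells held Tcf21, and just outside, with 3 UMIs, 3 of 16 and 7 of 19 did.

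**Figure D2:**
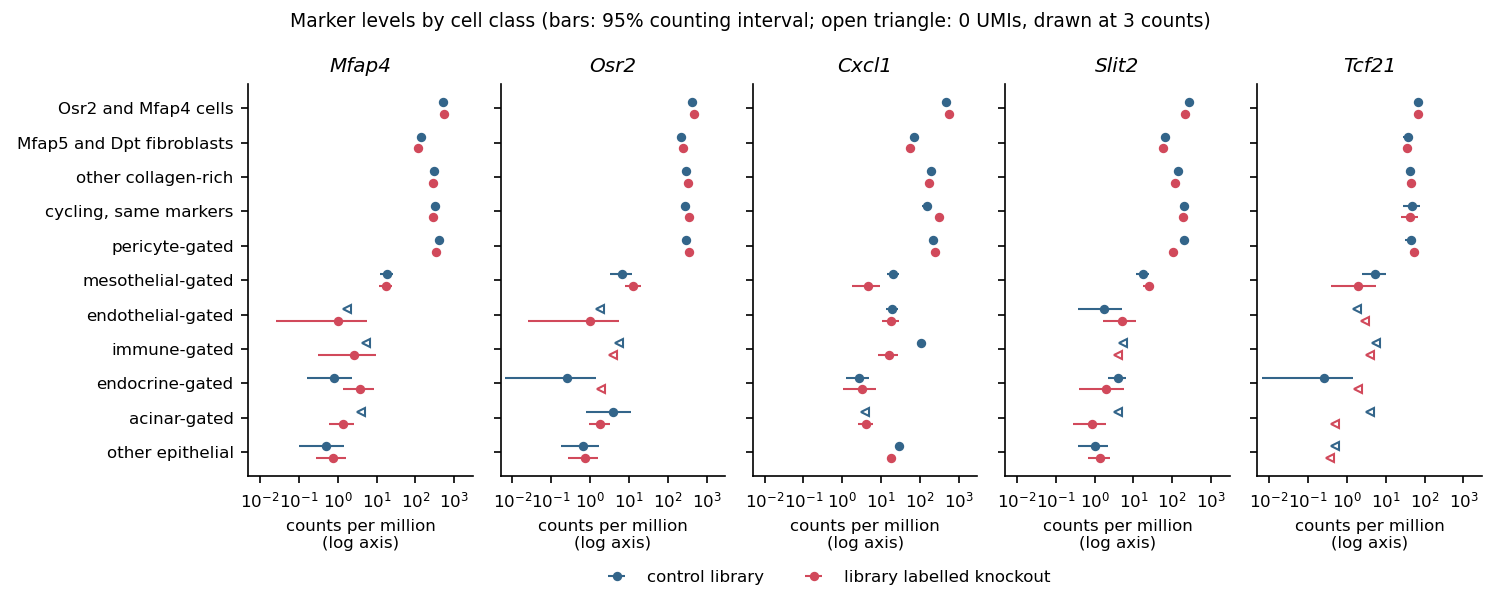
Level of Mfap4, Osr2, Cxcl1, Slit2 and Tcf21 in CPM (x axis, log scale) in each class of barcodes (y axis) and each library, with 95% counting intervals; open triangles stand for 0 UMIs. All 5 genes were at their highest in the Osr2 and Mfap4 cells, and Tcf21, which did not choose them, was at 69.6 and 66.4 CPM there and at 37.2 and 36.2 in Mfap5 and Dpt fibroblasts.

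Markers of other cell types were counted over whole lists. The 11 endothelial markers summed to 167 and 152 CPM in the Osr2 and Mfap4 cells, with Tie1, Esam and Cldn5 at 0. The 13 Schwann and neural markers summed to 56.0 and 57.6, with Sox10, Cdh19 and Ret among those at 0, and the 13 pericyte and smooth muscle markers to 422 and 431, with Cnn1 and Myh11 at 0. The 10 mesothelial markers summed to 99.3 and 152, and the 12 duct markers to 113 and 188. Acinar, endocrine and red cell lists had larger sums: 17 acinar markers summed to 4522 and 4193 CPM, 14 endocrine markers to 678 and 1048 and 9 red cell markers to 5156 and 22230. In 4 control and 11 other cells over 5% of UMIs were acinar or over 5% haemoglobin, and these are called heavily loaded below. Without them haemoglobin made up 0.0589% in place of 0.514% of UMIs in the control library and 0.0783% in place of 2.22% in the other, and acinar UMIs 0.0695% in place of 0.451% and 0.115% in place of 0.417%. The 11 immune markers summed to 183 and 16.8 CPM, and 194 of the 216 control UMIs lay in 1 barcode.

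The Osr2 and Mfap4 cells differed among themselves in which of the genes that chose them led. Mfap4 was the single highest of the 4 genes in 69 control cells and 66 of the other library, Cxcl1 in 57 and 72, Osr2 in 41 and 64, and Slit2 in 14 and 12. Cxcl1 was found in 125 of 211 and 127 of 240 cells and reached 19 and 42 UMIs in 1 cell, while Mfap4 was found in 169 and 189 and reached 13 and 25. In cells thinned to 2000 UMIs, the Fano factor (variance over mean, 1 for pure counting) had a median of 1.04 over 2055 genes in each library. It was 2.33 and 3.19 for Cxcl1, 1.76 and 2.51 for Mfap4, 1.36 and 1.36 for Osr2 and 1.06 and 1.30 for Slit2. The Fano factors of Cxcl1 and Mfap4 were thus above those of Slit2, but the mean counts differed too. After thinning the mean was 0.514 and 0.454 UMIs for Slit2, 0.971 and 1.17 for Cxcl1 and 1.13 and 1.23 for Mfap4. The part of the mean and of the rule in these spreads was not tested.

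Of genes outside the rule, without haemoglobin and the other genes that the rankings left out, the 10 of widest spread included Mgp. Matrix Gla protein, which Mgp encodes, blocks calcification of soft tissue. Its Fano factor was 4.34 and 6.86, and its UMIs after thinning lay in 15.2% and 11.3% of cells. The immediate early genes Jun (2.78 and 3.33) and Fos (2.48 and 2.94) and the matricellular gene Cyr61 (2.24 and 2.96) were also among them. So were the imprinted genes Meg3 (3.67 and 2.61), Dlk1 (2.45 and 2.56) and H19 (2.24 and 2.50), with Malat1 (11.3 and 9.82), Actb (7.46 and 4.63) and Itm2a (2.86 and 2.37). Mean counts after thinning ran from 0.357 and 0.267 UMIs for Mgp to 58.6 and 55.6 for Malat1. The part of the mean in these spreads was not tested.

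Cells led by Cxcl1 and cells led by Mfap4 were then compared, a split chosen after the values were seen. Heavily loaded cells were left out, which left 55 and 67 Cxcl1-led and 68 and 63 Mfap4-led cells, with a median of 5226 and 5572 UMIs against 5415.5 and 5272. Of 1602 genes with at least 100 UMIs, 6 (0.375%) were at least 1.5-fold higher in Cxcl1-led cells in both libraries and 28 (1.75%) in Mfap4-led cells. These are descriptions of cells sorted on their own counts.

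Of the 10 genes named on the Cxcl1 side, 4 were past 1.5-fold in both libraries. Il6, the interleukin 6 gene, stood at 127 CPM in Cxcl1-led and 21.5 in Mfap4-led control cells, a ratio of 5.92 (2.72 to 14.7), and at 168 and 56.5 in the library labelled knockout, a ratio of 2.97 (1.76 to 5.26). Has2, a hyaluronan synthase, was 2.39 and 3.22 times as high in Cxcl1-led cells, and Phlda1 2.53 and 2.20 times. Zfp36, which destabilises cytokine mRNAs, was 1.81 and 1.70 times as high. The other 6 had smaller ratios that were not past that fold in both. Those of the AP-1 genes were 1.62 and 1.43 for Junb, 1.54 and 1.23 for Jun and 1.30 and 1.33 for Fos. Klf6 (1.39 and 1.45), Btg1 (1.51 and 1.46) and Btg2 (1.35 and 1.25) completed that side.

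On the Mfap4 side Mgp stood at 317 CPM in Mfap4-led and 43.4 in Cxcl1-led control cells, 7.29-fold (4.10 to 14.1), and at 387 and 36.8 in the other library, 10.5-fold (6.05 to 19.8). Elastin (Eln) was 1.77-fold and 2.65-fold higher and Loxl1, which cross-links elastin, 2.41-fold and 2.03-fold. The small proteoglycan gene Aspn (4.72 and 2.02) and the serine protease gene Htra3 (1.62 and 1.87) were also past the fold in both. Dcn, another small proteoglycan gene (1.39 and 1.32), and the collagen-binding Sparc (1.30 and 1.48) were not. The chemokine Cxcl12, in contrast to Cxcl1, was on the Mfap4 side, at 641 and 405 CPM there against 284 and 257, 2.26-fold and 1.57-fold. Tcf21 was 1.65-fold (0.901 to 3.15) and 2.09-fold (1.16 to 3.86) higher in Mfap4-led cells, so the interval excluded 1 in a single library.

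Promoter sequence was examined for Cxcl1, on which the Cxcl1-led cells were sorted, and for Il6, which was higher in them. A form of the NF-kappaB site, GGGA and TTTCC with any 1 base between them, was searched on both strands in the 250 bases before the RefSeq start of each gene. It was present in 0.356% of 32851 windows, and in both of these. The windows are printed 5′ to 3′ on the gene's strand, from 250 to 31 bases before the start, with the site in capitals (GRCm38.p6, RefSeq; Cxcl1 at chr5:90890995-90891214 and Il6 at chr5:30012864-30013083, both plus strand).
Cxcl1: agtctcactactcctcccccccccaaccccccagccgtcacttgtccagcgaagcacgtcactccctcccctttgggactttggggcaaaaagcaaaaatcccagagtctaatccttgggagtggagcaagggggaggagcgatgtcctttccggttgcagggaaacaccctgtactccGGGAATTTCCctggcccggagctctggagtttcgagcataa
Il6: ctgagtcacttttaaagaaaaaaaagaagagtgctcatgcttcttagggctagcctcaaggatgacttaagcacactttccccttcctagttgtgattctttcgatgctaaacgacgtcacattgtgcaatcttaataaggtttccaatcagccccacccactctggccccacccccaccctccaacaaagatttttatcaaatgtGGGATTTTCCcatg
The site lies 71 to 62 bases before the start of Cxcl1 and 44 to 35 before that of Il6. Of the 6 genes looked up (the 4 of the rule, Tcf21 and Il6), 4 were in the RefSeq table and the other 2 of these held no match. The other genes named on the Cxcl1 side were not looked up, so a site shared by that side was not tested. A match describes letters, not binding. In the list of 22 NF-kappaB pathway genes, 3 had 100 UMIs or more, and Nfkbia, the inhibitor that the pathway induces, stood at 91.6 and 93.3 CPM over all Osr2 and Mfap4 cells.

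Against the Mfap5 and Dpt fibroblasts, 35 of 5499 genes (0.636%) were at least 2-fold higher in the Osr2 and Mfap4 cells in both libraries and 191 (3.47%) at least 2-fold lower. These include the genes of the rule, and since the classes were cut from the same cells no test was made. Serpine2, a serine protease inhibitor also called protease nexin 1 (chr1:79794197-79861180, minus strand), led the higher genes. It stood at 389 against 85.0 CPM in the control library and 508 against 111 in the other, a ratio of 4.57 (3.69 to 5.71) and 4.58 (3.91 to 5.39), and was found in 126 and 159 of the Osr2 and Mfap4 cells. Its ratio was nearly the same in both libraries.

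Among the higher genes named by rule, Bgn, the small proteoglycan biglycan, was 2.36 and 2.69 times as high as in fibroblasts, Mgp 4.13 and 3.01 times, Eln 2.83 and 1.95 times and the secreted matrix protein gene Spon1 4.72 and 8.98 times. Of surface proteins, the adhesion molecule Ncam1 (2.45 and 2.52) and the lectin Chodl (10.0 and 2.56) were higher. Among nuclear regulators Sox6 (3.88 and 4.04) and the Notch target Hes1 (1.82 and 2.04) were higher, with Gadd45g (2.09 and 2.00) and Btg2 (1.86 and 1.79). Sapcd1 (3.88 and 3.88), Crispld2 (3.35 and 3.75), Zfos1 (2.66 and 2.04) and the translation factor Eif3e (1.87 and 1.82) completed the 15 genes.

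On the fibroblast side, Tmeff2 was 52.5 and 10.7 times as high as in the Osr2 and Mfap4 cells, on 2 and 10 UMIs in the latter, and Gap43, known from growing axons, 18.5 and 6.23 times. Sema3c (7.77 and 7.31), a ligand of neuropilins and plexins, the growth factor Tgfb2 (7.16 and 5.78) and the CCN family gene Nov (8.09 and 12.9) were on this side too. Fibrillin 1 (Fbn1), the main microfibril scaffold, was 3.96 and 3.40 times as high in fibroblasts. The scavenger receptor gene Scara5 (6.17 and 19.8), the complement regulator Cd55 (5.48 and 6.91), the lipoprotein receptor Vldlr (7.07 and 5.50) and the plasminogen activator Plat (4.77 and 5.19) completed the 10 genes.

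**Figure D3:**
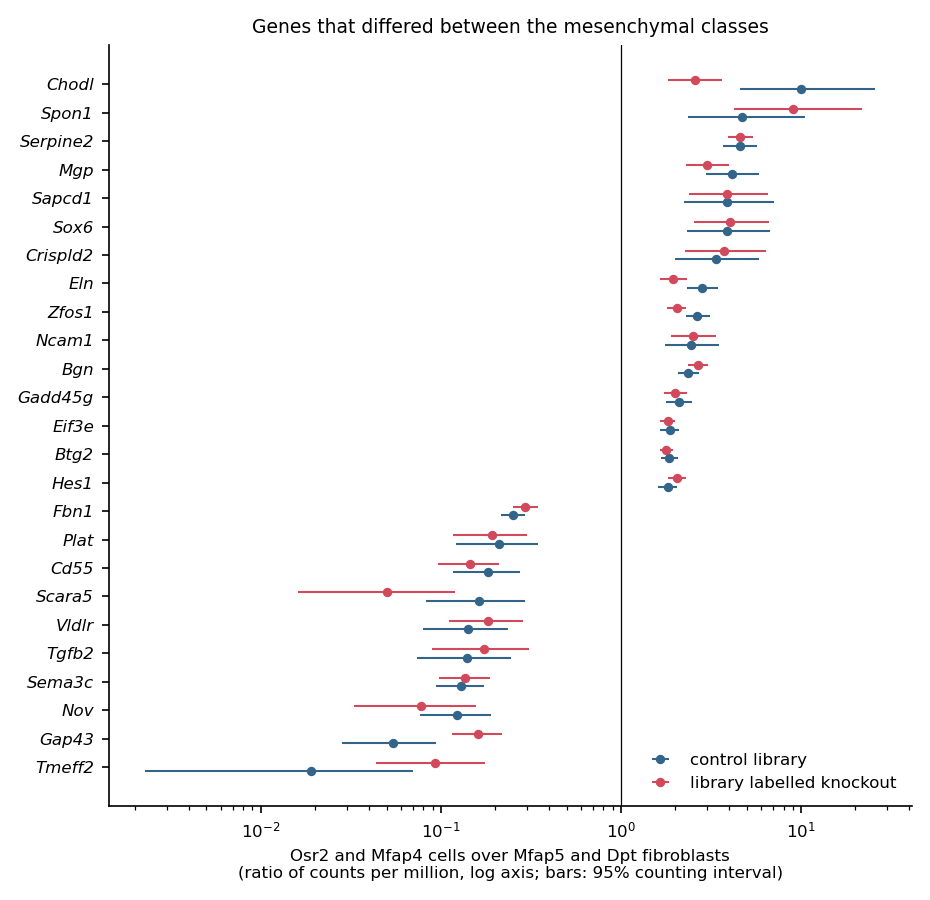
Ratio of CPM in Osr2 and Mfap4 cells over Mfap5 and Dpt fibroblasts (x axis, log scale) for the 15 higher and 10 lower genes named by rule (y axis), 1 point per library with its 95% counting interval. Serpine2 sits at 4.57 and 4.58, while Tmeff2 at the other end rests on 2 and 10 UMIs in the Osr2 and Mfap4 cells.

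Gene families were counted without the genes of the rule, beside the 0.636% higher and 3.47% lower over all 5499 genes. Of 26 proteoglycan and matricellular genes with enough counts, 2 were at least 2-fold higher in the Osr2 and Mfap4 cells in both libraries (Bgn and Spon1) and 11 lower, among them Dcn, which stood at 2.25 and 2.34 times the level in fibroblasts. Of 22 growth factors and secreted inhibitors, none was 2-fold higher and 6 were lower (Tgfb2, Bmp7, Sfrp2, Dkk2, Nbl1 and Fgf10). Of 11 axon guidance genes, Epha4 was higher and Sema3c, Sema3d and Slit3 lower, and of 15 elastic fibre genes, Mgp was higher and Fbn1, Fbln2 and Emilin2 lower. Of the rule genes in these 2 lists, Slit2 (4.25 and 3.73) and Mfap4 (3.72 and 4.54) were past the fold higher and Mfap5 lower, as the choice of cells fixes. None of 11 basement membrane genes differed by that fold. Of 23 mesenchyme transcription factors, none was 2-fold higher and Twist2 was lower, and Nkx3-2 and Foxf2 had no UMI in the Osr2 and Mfap4 cells of either library.

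By the rule as given, the share of Osr2 and Mfap4 cells differed between the libraries by less than counting error. They were 8.01% of kept barcodes (7.005 to 9.12) in the control library and 7.37% (6.49 to 8.32) in the library labelled knockout, a ratio of 0.920 (0.770 to 1.10). Among non-cycling stromal barcodes they were 211 of 645, or 32.7% (29.1 to 36.5), and 240 of 839, or 28.6% (25.6 to 31.8), a ratio of 0.874 (0.750 to 1.02). The fibroblasts went from 7.60% to 9.82% of kept barcodes, a ratio of 1.29 (1.09 to 1.53). Where no pericyte UMI was allowed, 124 and 107 cells were left, and non-cycling stromal barcodes with such a UMI left the kept barcodes too. The ratio of shares was then 0.716, below the interval given above for kept barcodes. No interval was computed for that ratio. Cycling barcodes with the same marker ratio numbered 42 and 46.

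Of the genes that chose the cells, Mfap4 (ratio of the library labelled knockout over control 1.02, 0.912 to 1.13) and Osr2 (1.12, 0.993 to 1.26) had intervals that included 1, as had Tcf21 (0.954, 0.700 to 1.30). Cxcl1 was 1.17 times as high (1.04 to 1.30). Slit2 was 1.27-fold lower (1.08 to 1.497). The rule required at least 4 UMIs of Mfap4, Osr2, Cxcl1 and Slit2 together in either library, so the ratios of these genes compare truncated values. Cxcl1 was found in 59.2% of control cells and 52.9% of the other library's, where 1 cell held 42 of its 769 UMIs.

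Across 2855 genes with at least 100 UMIs in the Osr2 and Mfap4 cells, 78 (2.73%) were at least 1.5-fold higher in the library labelled knockout and 78 (2.73%) at least 1.5-fold lower, 5.46% in all. The median log2 ratio was 0.00. Of the 78 higher genes, 2 belonged to the rule, 4 lie on the sex chromosomes, 4 were haemoglobins and 24 were more than 5 times as high in a non-mesenchymal class. Of the 78 lower genes, 5 lie on the sex chromosomes and 18 were more than 5 times as high in such a class. Without the heavily loaded cells the counts were 67 and 68. In the fibroblasts 119 of 3758 genes (3.17%) were higher and 143 (3.81%) lower by the same fold. Of the higher genes, 74 had enough counts in fibroblasts, where 63 lay on the same side of 1 and 31 passed the fold. Of the lower genes, 70 had enough counts, 53 lay on the same side and 22 passed.

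Igf1, insulin-like growth factor 1 (chr10:87858265-87937042, plus strand), had 269 UMIs in 107 of 211 control cells and 622 in 176 of 240 cells of the library labelled knockout. Its level was 228 and 454 CPM, a ratio of 1.99 (1.72 to 2.30), against 1.48 (1.30 to 1.68) in fibroblasts. The direction was shared by other collagen-rich (267 and 450 CPM), pericyte-gated (302 and 421), mesothelial-gated (370 and 665) and other epithelial barcodes (21.6 and 88.9), while acinar-gated barcodes went the other way (283 and 202).

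Igfbp5, which binds IGFs, was 2.04 times as high (1.48 to 2.84) at 47.5 and 97.0 CPM. Its ratio in fibroblasts was 1.03 (0.930 to 1.14), and it was more than 5 times as high in a non-mesenchymal class. It is 1 of the 10 mesothelial markers, whose sum, Igfbp5 included, was 99.3 and 152 CPM, and the part of mesothelial RNA in its ratio was not tested. Igfbp3, the main carrier of IGFs in serum, was 1.93-fold lower (1.60 to 2.34) at 250 and 130. Igfbp3 was found in 138 of 211 and 105 of 240 cells. The ratio of Igf2, 968 and 961 CPM, was 0.993 (0.917 to 1.08), and that of Igfbp4 0.893 (0.822 to 0.971). Of the 8 IGF ligands and binding proteins, 5 had 100 UMIs or more, of which 2 were past 1.5-fold higher and 1 lower, beside 2.73% of all genes each way.

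Crabp1, which binds retinoic acid in the cytoplasm, had the largest ratio of the named genes, 3.64 (2.24 to 6.17), from 17.8 to 64.9 CPM. It was found in 11 and 42 cells, 9 of its 21 control UMIs lay in 1 cell, and its ratio in fibroblasts was 2.81 (2.14 to 3.74). Csrp2, a LIM domain protein, stood at 429 and 741 CPM, a ratio of 1.73 (1.55 to 1.92), and was found in 177 and 225 cells. Its ratio in fibroblasts was 1.57 (1.42 to 1.73). Both genes were thus higher in the 2 mesenchymal classes alike.

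Il6 stood at 62.8 and 106 CPM, a ratio of 1.70 (1.27 to 2.27), in a like share of cells (36 of 211 and 45 of 240). Its highest cell held 6 and 14 UMIs. Fos stood at 3046 and 4057, a ratio of 1.33 (1.28 to 1.39), and Gadd45b at 97.6 and 156, a ratio of 1.60 (1.27 to 2.02). Atf3 was 1.95 times as high (1.54 to 2.47), but in fibroblasts its ratio was 0.848 (0.748 to 0.963), and it was more than 5 times as high in a non-mesenchymal class. Jun was 1.32 times as high (1.24 to 1.42), whereas Junb (1.01, 0.939 to 1.08) and Egr1 (0.939, 0.878 to 1.01) had intervals that included 1. Of 32 immediate early and dissociation response genes, 23 had 100 UMIs or more, 2 were past 1.5-fold higher and none lower, beside 2.73% of all genes each way, and their median log2 ratio was 0.04. Such genes respond to tissue digestion, and the part of handling in these values was not tested.

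The other higher genes named by rule were Tor1aip1 (28.0 and 56.9 CPM), Adrbk2 (35.6 and 70.7), Ing4 (39.9 and 73.7), Dusp11 (49.2 and 86.8), Pnkd (62.8 and 109) and Mkrn1 (28.0 and 59.8), with ratios between 1.74 and 2.14. Tor1aip1, a nuclear envelope protein, had a ratio of 2.03 (1.34 to 3.15) here and 0.877 (0.646 to 1.19) in fibroblasts. The ratio of Mkrn1 rested on barcodes rich in haemoglobin. A single cell held 24 of its 82 UMIs in the library labelled knockout, and without the heavily loaded cells its log2 ratio was -0.32 in place of 1.09.

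**Figure D4:**
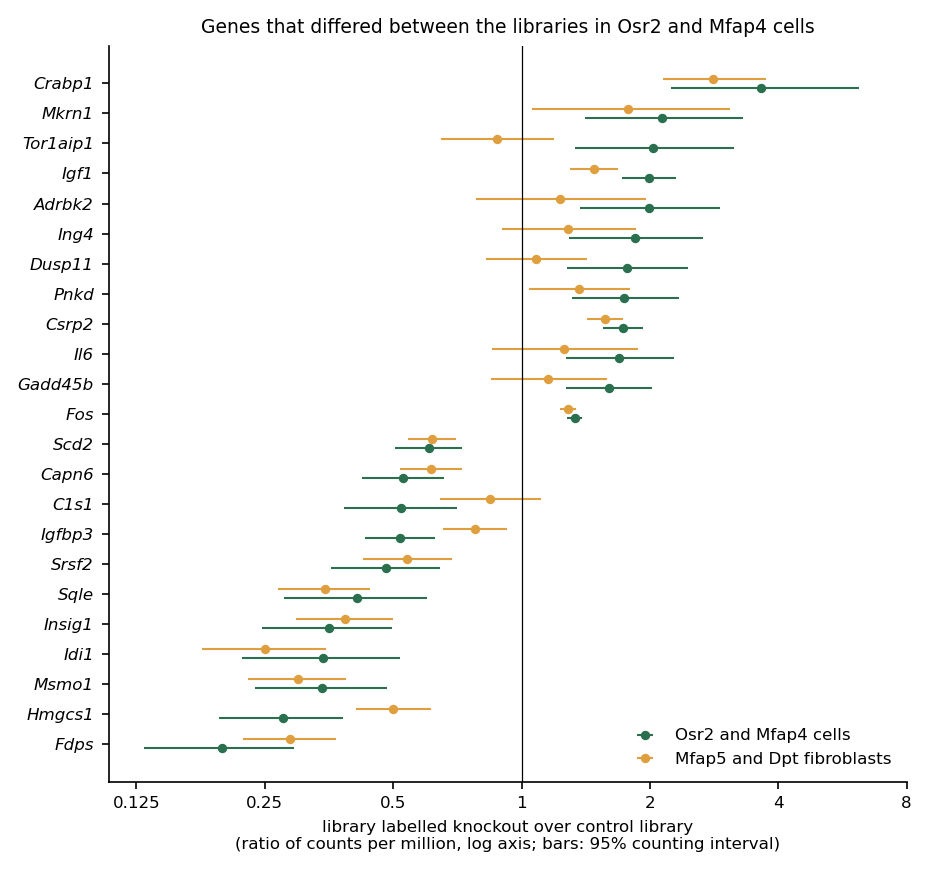
Ratio of CPM in the library labelled knockout over the control library (x axis, log scale) for 12 higher and 11 lower genes named by rule (y axis), in Osr2 and Mfap4 cells and in Mfap5 and Dpt fibroblasts, with 95% counting intervals. Fdps at a ratio of 0.198 and Crabp1 at 3.64 are the ends of the Osr2 and Mfap4 series, and 6 of the 11 lower genes shown belong to sterol synthesis and its regulation.

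The lower side was led by genes of cholesterol synthesis. Fdps, which makes farnesyl pyrophosphate (chr3:89093588-89101959, minus strand), had 139 UMIs in 70 of 211 control cells and 32 in 20 of 240 cells of the library labelled knockout. Its level was 118 and 23.3 CPM, 5.05-fold lower (3.42 to 7.67). Hmgcs1, which makes HMG-CoA (chr13:119690379-119708260, plus strand), stood at 130 and 35.7 CPM, 3.63-fold lower (2.62 to 5.12). Fewer cells held a UMI of it, 77 of 211 and 36 of 240.

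Other steps of the pathway were lower as well. Idi1, which isomerises isopentenyl pyrophosphate, stood at 70.4 and 24.1 CPM, 2.93-fold lower (1.93 to 4.52). Squalene synthase Fdft1 (59.4 and 15.3) was 3.88-fold lower (2.35 to 6.65), and squalene epoxidase Sqle (74.7 and 30.6) 2.44-fold (1.67 to 3.61). The demethylase gene Cyp51 (57.7 and 18.2) was 3.16-fold lower (1.97 to 5.22), and Msmo1 (98.4 and 33.5) 2.93-fold (2.07 to 4.22). Near the end of the pathway Dhcr7 (22.9 and 10.2) was 2.24-fold lower (1.14 to 4.63). The genes with intervals that included 1 were Ebp (1.12-fold, 0.651 to 1.94), Nsdhl (1.16-fold, 0.633 to 2.14), Tm7sf2 and Sc5d. Ebp and Nsdhl are X-linked. In fibroblasts their ratios were 0.547 (0.386 to 0.772) and 0.486 (0.288 to 0.811).

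Each of the 20 sterol synthesis enzymes in a list drawn up after the values were seen had a ratio below 1, and for 16 the upper bound was below 1. The 7 with 100 UMIs or more were all past 1.5-fold lower, beside 2.73% of all genes tested. Summed over the 20 genes, 1165 UMIs and 510 UMIs gave 988 and 372 CPM, 2.66-fold lower (2.39 to 2.95). The difference was spread over cells. The summed enzymes had a median of 5.35 UMIs per 10000 of a control cell (quartiles 1.83 and 14.8) and 2.03 in the library labelled knockout (0 and 4.07), with highest values of 49.9 and 61.9. In cells thinned to 2000 UMIs, 57.1% and 35.8% held at least 1 such UMI and 27.1% and 5.83% at least 3.

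**Figure D5:**
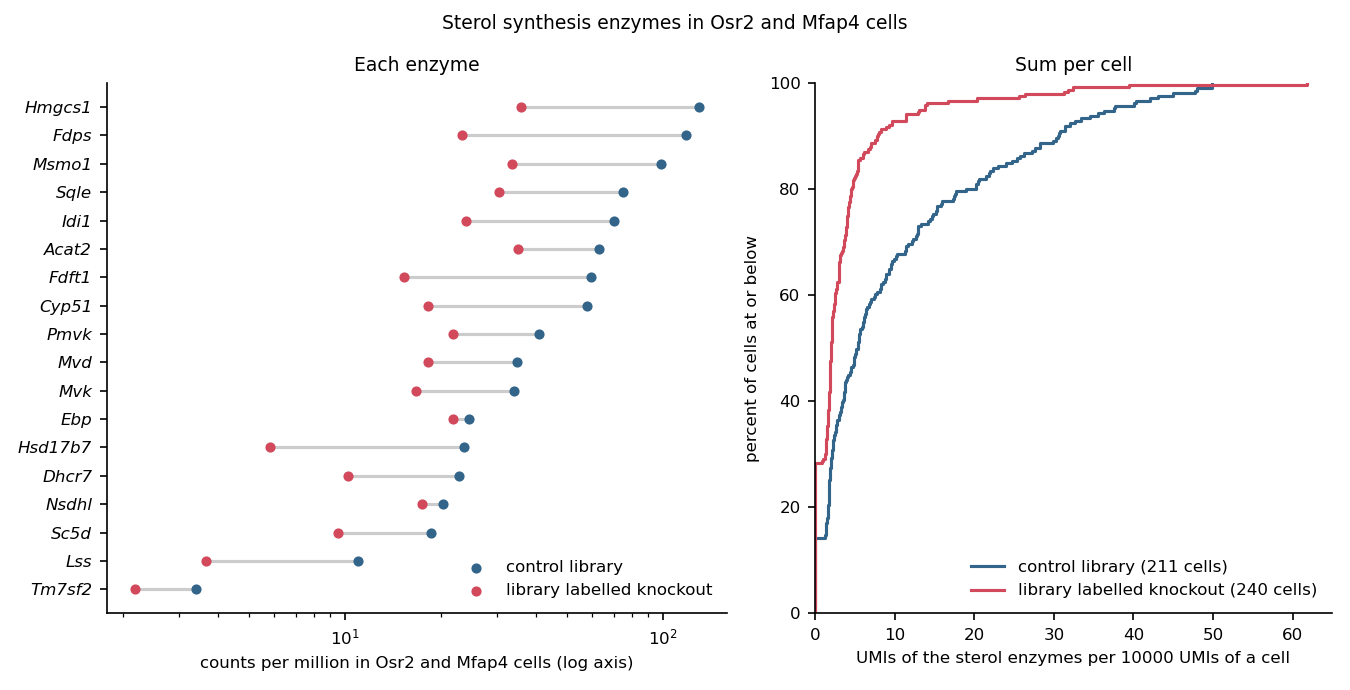
Left, CPM of 18 of the 20 sterol synthesis enzymes (x axis, log scale) in the Osr2 and Mfap4 cells of each library; right, the percent of cells (y axis) at or below a summed count of all 20 enzymes per 10000 UMIs of a cell (x axis). Every enzyme shown was lower in the library labelled knockout, and the curves separate over most of their range, with medians of 5.35 and 2.03.

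Other classes differed in the same direction. The summed level was 2.65-fold lower (2.46 to 2.85) in Mfap5 and Dpt fibroblasts, at 1569 and 592 CPM, 2.99-fold in other collagen-rich, 2.83-fold in acinar-gated, 2.27-fold in pericyte-gated and 2.15-fold in other epithelial barcodes. It was smaller in cycling barcodes with the same markers (1.49-fold), immune-gated (1.54-fold), endothelial-gated (1.24-fold) and endocrine-gated barcodes (1.11-fold). Over all kept barcodes it was 1.99-fold. The part of sex, handling or genotype in a difference shared by so many classes cannot be told apart.

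Regulators of the pathway were mixed. Insig1, which holds SREBP precursors in the endoplasmic reticulum and is itself an SREBP target, was 2.84-fold lower (2.01 to 4.06), and Srebf2, which encodes SREBP2, 2.33-fold (1.36 to 4.08). The sterol carrier Stard4 was 2.46-fold lower (1.37 to 4.57) and the efflux pump Abca1 3.10-fold (1.39 to 7.58). Both were more than 5 times as high in a non-mesenchymal class. Abca1 had 24 and 9 UMIs, and its ratio in fibroblasts was 1.39 (0.795 to 2.50). Npc2, which moves cholesterol out of lysosomes, stood at 277 and 279 CPM, a ratio of 1.00 (0.864 to 1.17), and Scap (10.2 and 16.0 CPM) and Insig2 (22.1 and 27.7) were not lower. Of the 14 regulators, 2 had 100 UMIs or more and Insig1 was past 1.5-fold lower. Among 11 fatty acid enzymes, Scd2 (254 and 154 CPM, 1.65-fold, 1.38 to 1.98) and Acly (1.86-fold, 1.27 to 2.73), the 2 with 100 UMIs or more, were past it. Acly too was more than 5 times as high in a non-mesenchymal class.

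The promoters of sterol enzymes were searched for CACNCCAC, a core of the sterol regulatory element bound by SREBPs, on both strands in the same 250 bases. It was present in 5.29% of all 32851 windows. Of the 20 enzymes 15 were in the RefSeq table and 2 held a match, Hmgcs1 and Acat2, and of the 14 regulators 9 were in the table and Insig1 held one. The Hmgcs1 and Acat2 windows are shown from 250 to 31 bases before the start with the matches in capitals, since both genes were past 1.5-fold lower (GRCm38.p6, RefSeq; Hmgcs1 at chr13:119690101-119690320, plus strand, and Acat2 at chr17:12960756-12960975, minus strand).
Hmgcs1: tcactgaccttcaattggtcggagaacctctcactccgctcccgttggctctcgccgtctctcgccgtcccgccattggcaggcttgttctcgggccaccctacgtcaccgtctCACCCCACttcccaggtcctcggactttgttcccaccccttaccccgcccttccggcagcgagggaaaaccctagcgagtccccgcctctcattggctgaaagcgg
Acat2: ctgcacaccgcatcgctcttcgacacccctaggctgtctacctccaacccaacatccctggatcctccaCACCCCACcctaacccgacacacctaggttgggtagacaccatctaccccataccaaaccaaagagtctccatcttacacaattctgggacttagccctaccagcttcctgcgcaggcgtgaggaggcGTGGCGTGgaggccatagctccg
The match in Hmgcs1 lies 136 to 129 bases before the start. Acat2, which makes acetoacetyl-CoA, holds a match 181 to 174 bases before the start and another on the opposite strand at 53 to 46. Acat2 stood at 62.8 and 35.0 CPM, 1.79-fold lower (1.23 to 2.64). The other enzymes of the table held no match in these letters and windows.

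Outside sterol and fatty acid metabolism the lower genes named by rule were Igfbp3, the splicing factor Srsf2 (112 and 54.0 CPM, 2.08-fold, 1.55 to 2.80), the X-linked calpain gene Capn6 (184 and 97.0, 1.90-fold, 1.52 to 2.37) and the complement protease C1s1 (99.3 and 51.8, 1.92-fold, 1.42 to 2.61). Srsf2 and Capn6 were lower in fibroblasts too, with ratios of 0.540 and 0.614. The interval of C1s1 in fibroblasts (ratio 0.845, 0.645 to 1.11) included 1.

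Other gene lists were counted without the genes of the rule, beside the 2.73% of all genes higher and 2.73% lower between the libraries. Of 25 collagens, 4 belong to the rule and 12 others had 100 UMIs or more, of which Col15a1 alone was past 1.5-fold lower (1.51-fold, 0.999 to 2.29), with a median log2 ratio of -0.23 over the list. None of the 13 elastic fibre genes, 17 proteoglycans, 7 basement membrane genes and 15 matrix proteases and inhibitors with enough counts was past the fold. Their median log2 ratios were -0.29, 0.01, -0.09 and -0.02. Below that fold, elastin stood at 337 and 241 CPM (1.40-fold lower, 1.20 to 1.62), Fbn2 at 390 and 281 (1.39-fold, 1.21 to 1.59) and nidogen 1 (Nid1), which links laminin to collagen IV, at 357 and 244 (1.47-fold, 1.27 to 1.70).

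Of growth factors and secreted inhibitors outside the IGF family, 9 had enough counts and none was past 1.5-fold, with a median log2 ratio of 0.03. The heparin-binding growth factors Ptn (2189 and 2668 CPM, ratio 1.22, 1.16 to 1.28) and Mdk (540 and 704, ratio 1.30, 1.18 to 1.44) were higher by less than that. Among 4 chemokines, cytokines and complement genes outside the rule Il6 was higher and C1s1 lower, and Cxcl12 stood at 414 and 310 (1.34-fold lower, 1.17 to 1.52). Of 9 axon guidance genes the ephrin receptor Epha3 was lower (143 and 89.7, 1.59-fold, 1.25 to 2.02), and of 17 receptors the surface protein Thy1 (65.3 and 35.0, 1.87-fold, 1.28 to 2.73).

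Of 16 mesenchyme transcription factors other than Osr2 with enough counts, Osr1, a paralog of Osr2, was past 1.5-fold higher at 61.1 and 101 CPM, a ratio of 1.65 (1.23 to 2.22), and none was lower. Osr1 was more than 5 times as high in a class outside the mesenchyme, mesothelial-gated barcodes counted among these. Zeb2 (271 and 260 CPM) and Ebf1 (400 and 454) had ratios of 0.959 and 1.14. In 5 retinoid genes Crabp1 alone passed the fold, in 13 contractile genes Mylk was lower (1.66-fold, 1.13 to 2.46), and none of 17 imprinted growth genes passed it. Of 3 NF-kappaB pathway genes Vcam1 was lower (57.7 and 30.6, 1.88-fold, 1.26 to 2.84), of 9 glycolysis genes Gpi1 (1.57-fold, 1.17 to 2.11), and of 6 S phase genes Rfc2 was higher (ratio 1.64, 1.12 to 2.43). None of 3 p53 response genes, 6 G1 cyclins and CDK inhibitors and 3 TrxG complex genes passed it.

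Of 4 adipocyte lineage genes with enough counts, Lpl, lipoprotein lipase, stood at 156 and 93.3 CPM (1.67-fold lower, 1.33 to 2.11). Apoe, which carries lipids and is abundant in macrophages, was counted as 3.97-fold lower (2.84 to 5.64), at 133 and 33.5 CPM. That difference rested on 1 cell: 136 of the 157 control UMIs of Apoe lay in the barcode with 194 immune marker UMIs.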

How the data were processed

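RNA was counted in 10x Chromium 3' v2 libraries of 1 control pancreas library and 1 labelled knockout. Per the file headers, Cell Ranger 3.0.0 made the deposited matrices, which hold an unnormalised UMI count for each of 27998 genes in each barcode. GRCm38 and mm10 are the builds, and Seurat 2, Seurat 3 and Cell Ranger the tools, in the submitters' processing notes. The authors' deposited table of cluster genes was not used. The labels give 20 min of digestion and 17.4 µL loaded for a target of 10000 cells.

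The cells, the gene lists and the marker lists were chosen with earlier results of these data known; 3 sterol and fatty acid lists were drawn up after their values were seen. No doublets were removed in the main analysis. UMIs were summed per class and library and divided by the class total (CPM, per 1000000 UMIs). The quality limits removed 1290 and 1465 barcodes for few genes and 63 and 57 for mitochondrial UMIs. Ratios carry exact conditional binomial intervals, shares exact Clopper-Pearson intervals, ratios of shares Katz intervals, at 95%. A gene counted as past the fold at 1.5 between libraries, or at 2 in both libraries between classes, with at least 100 UMIs.

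Named genes between libraries were the 12 with the highest lower bound and the 12 with the lowest upper bound. Against fibroblasts they were the 15 and 10 with the bound nearest 1 furthest from it in the library where it was weaker, for spread the 10 with the highest Fano factor of genes with a thinned mean of at least 0.1, and between Cxcl1-led and Mfap4-led cells 10 each way. Rankings between libraries, between classes and by spread left out rule, haemoglobin, mitochondrial, ribosomal protein and Y-linked genes, Xist, Tsix and models without a symbol. They also left out genes over 5 times as high in a non-mesenchymal class of at least 50 barcodes. Red cell barcodes, 2 in the control library and 8 in the other, fell short of that number. Other list members could be named for their counts. A few genes that the rule or lists name are not reported here; they stay in counts and sums. Coordinates are GRCm38 (GENCODE vM21). Other classes were gated by marker UMIs. The scripts were tested on simulated data. Tools were scanpy 1.11.5 (Scrublet), edgeR 4.0.16 (TMM factors only), scipy 1.17.1, numpy 2.4.6, pandas 2.3.3 and matplotlib 3.10.9 under Python 3.11.15, and 21 planned and 2 added alternatives were tried.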

Additional observations from a re-analysis of the deposited data

Results flagged for a closer look

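For 6 of the 12 higher and 12 lower genes named by rule between the libraries, the ratio between libraries in the Osr2 and Mfap4 cells differed from that in the Mfap5 and Dpt fibroblasts by more than counting error; none of these differences was tested across animals. The ratio in the Osr2 and Mfap4 cells over the ratio in fibroblasts was 2.32 (1.40 to 3.83) for Tor1aip1, which lies at 28.0 and 56.9 CPM in the former and 63.1 and 55.4 in the latter. It was 1.63 (1.08 to 2.45) for Dusp11 (49.2 and 86.8 against 72.8 and 78.9) and 1.35 (1.11 to 1.63) for Igf1 (228 and 454 against 280 and 413). On the lower side it was 0.550 (0.377 to 0.802) for Hmgcs1 (130 and 35.7 against 189 and 94.8), 0.618 (0.416 to 0.916) for C1s1 (99.3 and 51.8 against 81.8 and 69.1) and 0.667 (0.519 to 0.856) for Igfbp3 (250 and 130 against 206 and 161). Genes outside that rule differed too; among list members it was, for example, 2.29 (1.77 to 2.98) for Atf3, 1.98 (1.43 to 2.75) for Igfbp5, 2.22 (1.28 to 3.84) for Thy1, 1.53 (1.25 to 1.87) for Cd34, 1.37 (1.18 to 1.59) for Ebf1 and 0.688 (0.534 to 0.887) for Eln. Of the 78 higher genes, 74 had enough counts in fibroblasts, and 17 of these had such an interval off 1. Of the 78 lower genes, 70 had enough counts, and 26 of these had one. The named and called genes were chosen for their ratios in the Osr2 and Mfap4 cells. That choice alone can move their ratio over the ratio in fibroblasts away from 1, and the share over all genes was not counted.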

How the results depend on the processing

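No paired analysis was possible because each group is 1 library. The share ratio, reported as 0.920, lay between 0.716 and 0.967 over 10 alternatives, with 0.716 where no pericyte UMI was allowed (an alternative added after seeing the data). The summed sterol ratio, reported as 0.376, lay between 0.322 (cells thinned to 2000 UMIs) and 0.392 over 15. Counts of genes higher and lower in the library labelled knockout, 78 and 78, were 45 and 30 with 40 collagen UMIs required, 51 and 37 with no pericyte UMI and 30 and 24 after thinning. They were 236 and 262 at 50 UMIs per gene, 28 and 24 at 200, 2941 and 3134 with no minimum and 26 and 18 at a fold of 2, where the alternative itself changes which genes count. With A (Mfap4, Osr2, Cxcl1 and Slit2) at least 4 times the opposing sum, 49 were lower. The 35 genes higher than in fibroblasts were 19 with no pericyte UMI, 62 against stricter fibroblasts and 71 at 50 UMIs; the 191 lower genes lay between 141 and 264 over 12. Mkrn1 changed direction to a log2 ratio of -0.32 without heavily loaded cells. Scrublet called 22 and 24 doublets, 3 and 1 of them among the Osr2 and Mfap4 cells. Of the values of single genes and lists, 1190 stayed within counting error of the reported value (genes) or within 0.1 log2 of it (lists), 113 moved and 1 reversed. Subtraction of free RNA was not run, since acinar markers made up 0.358% and 0.355% of UMIs in barcodes under 500 genes and 0.451% and 0.417% in the cells. Without the heavily loaded cells the latter shares were 0.0695% and 0.115%, and no subtraction was tried on the cells that were left. Depth limits what can be seen of genes such as Tcf21, whose 82 and 91 UMIs gave a ratio between 0.700 and 1.30.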

Other observations

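Some genes of the rule that are low in these cells by choice still differed between the libraries. Cthrc1, a secreted protein of activated fibroblasts, was found in 38 of 211 control cells and 78 of 240 cells of the library labelled knockout, at 46.7 and 99.9 CPM, a ratio of 2.14 (1.56 to 2.98). In Mfap5 and Dpt fibroblasts it stood at 348 and 539 CPM, a ratio of 1.55 (1.38 to 1.74). Krtdap, which the rule also counts, went the other way in fibroblasts, at 388 and 164 CPM, and had 3 and 9 UMIs in the Osr2 and Mfap4 cells. Since the limit on these genes was the same in both libraries, the levels in the Osr2 and Mfap4 cells are truncated values.

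The fibrillar collagens that every cell had to express were lower here than in the fibroblasts, at 2361 and 2266 CPM for Col1a1 against 5781 and 5030, 2.45 and 2.22 times as high in the fibroblasts. Between libraries Col1a1 had a ratio of 0.960 (0.912 to 1.01) in the Osr2 and Mfap4 cells and 0.870 (0.843 to 0.898) in the fibroblasts. Cdkn1c, an imprinted inhibitor of the cell cycle, stood at 1.89 and 1.72 times the Osr2 and Mfap4 level in fibroblasts, and Ccnd2 at 725 and 550 CPM in the Osr2 and Mfap4 cells.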
